A study of Mus musculus with 22 samples.

Results

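The histone variant H2A.Z was depleted in mouse zygotes by small interfering RNA (siRNA), and the RNA of the resulting 2-cell embryos was compared with that of control embryos of the same stage. The libraries were chosen by name: of 22 libraries in the series, 7 are marked as 2-cell embryos, 4 of them control (replicates 1, 2, 4 and 5) and 3 of them H2A.Z knockdown (KD; replicates 1, 2 and 4). Of 55335 genes in the table, the 12160 that reached 1 FPKM in 3 or more of these 7 libraries were tested. FPKM are fragments normalized to transcript length and to the fragments mapped in the library, so levels of different genes can be set side by side per length. A further 852 genes reached 1 FPKM in exactly 2 of the 7 libraries and were left out, 627 genes passed with exactly 3 libraries, and 9581 reached it in all 7.

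The series covers 2-cell embryos, morulae and blastocysts, each as control and KD, by RNA-seq. All embryos were of strain B6D2F1, and every library was made from 15 pooled embryos by Smart-seq2, a method that amplifies full-length cDNA of polyadenylated RNA. For the KD, zygotes received about 10 pl of a mix of siRNAs against H2A.Z, at 20 µM, between 20 and 22 h after the injection of human chorionic gonadotropin that triggers ovulation, and observation of injected embryos began at 44 h. For control embryos the label gives no more than the word control. The methods of the study call the control embryos of its quantitative PCR noninjected and do not say this of the RNA-seq libraries, so an effect of injection or of siRNA as such cannot be told apart from that of H2A.Z depletion. Nothing in the labels says that replicates came from separate cultures or animals, so the p-values measure the spread between these libraries.

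H2A.Z takes the place of the core histone H2A in nucleosomes near transcription start sites and at enhancers. The remodelling complexes SRCAP and TIP60-p400 exchange it into chromatin, the chaperone ANP32E takes it out, and both H2afz and H2afv encode an H2A.Z protein. At the 2-cell stage the mouse embryo switches on its own genome in the major wave of zygotic genome activation (ZGA), while the RNAs stored in the oocyte are being degraded.

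Marker genes fitted the labelled stage. The summed FPKM of 8 genes of the 2-cell embryo, among them Zscan4c, Zfp352 and Tcstv3, lay between 412 and 685 in the 7 libraries, against 10.0 to 25.3 in the 7 morula libraries and 2.88 to 5.64 in the 4 control blastocyst libraries. Tcstv3 was the most abundant of them, at 146 to 322 FPKM in 2-cell embryos. The 10 markers of morula and blastocyst summed to 18.3 to 36.2 FPKM, most of it Fgf4, against 151 to 371 in morulae and 1160 to 1692 in control blastocysts. Fgf4 itself does not mark morulae here, with means of 23.1 FPKM in 2-cell control embryos and 0.815 FPKM in control morulae. Its level in blastocysts is not reported here. RNA of other cells that can adhere to embryos was scarce. The 19 genes of cumulus and granulosa cells summed to 5.53 to 11.5 FPKM, with Serpine2 the most abundant and 3 at 0 in all 7 libraries. Of 8 sperm and spermatid genes, which summed to 0.209 to 0.958 FPKM with Prm2 the most abundant, 2 were at 0 throughout and 0 passed the filter. The 6 blood genes summed to 2.74 to 8.51 FPKM, led by Hba-a1, and 2 of them were at 0 in every library.

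The siRNA sequences were not used here, so whether they match H2afz alone or also H2afv and the pseudogenes was not tested. H2afz, the more abundant gene for H2A.Z (ENSMUSG00000037894.13, chr3:137864487-137866922 on mm10), was lower in every KD library than in any control library, and its residual level differed between KD libraries. FPKM of H2afz were 1244, 1236, 905 and 1178 in control replicates 1, 2, 4 and 5. In KD replicates 1, 2 and 4 they were 415, 139 and 112, which is 36.3%, 12.1% and 9.82% of the control mean. KD replicate 1 thus kept the most H2afz RNA, and the groups did not overlap. The log2 fold change was -2.53 on the log2(FPKM + 1) scale used throughout, which understates the change of genes with low FPKM, with a 95% interval of -3.38 to -1.69 from limma. An exact permutation test of H2afz over the 7 libraries (two-sided) gave p = 0.0286, the smallest p that the 35 assignments of libraries allow. In bulk embryos, fewer cells with the RNA and less RNA per cell cannot be told apart. Within replicate numbers 1 and 2 the H2afz difference was -2.37 and within numbers 4 and 5 it was -3.03. Here and below, KD replicate 4 is the only KD library within numbers 4 and 5. On average 19.4% of the control level was left in 2-cell KD embryos, against 2.09% in KD morulae.

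H2afv (ENSMUSG00000041126.16, chr11:6427229-6444443), whose protein is nearly the same, differed little at this stage. FPKM of H2afv were 111, 118, 96.8 and 113 in control libraries, in the order of their numbers, and 97.6, 85.4 and 83.7 in KD libraries. KD replicates 2 and 4 lay under all controls and KD replicate 1 just above control replicate 4. Its log2 fold change was -0.23 (95% interval -0.58 to 0.11 from limma; p = 0.143, exact permutation test), and KD libraries kept 81.1% of the control level on average. Taken per length, H2afz and H2afv together summed to 1002 to 1355 FPKM in control libraries and to 512, 224 and 196 FPKM in KD replicates 1, 2 and 4.

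**Figure D1:**
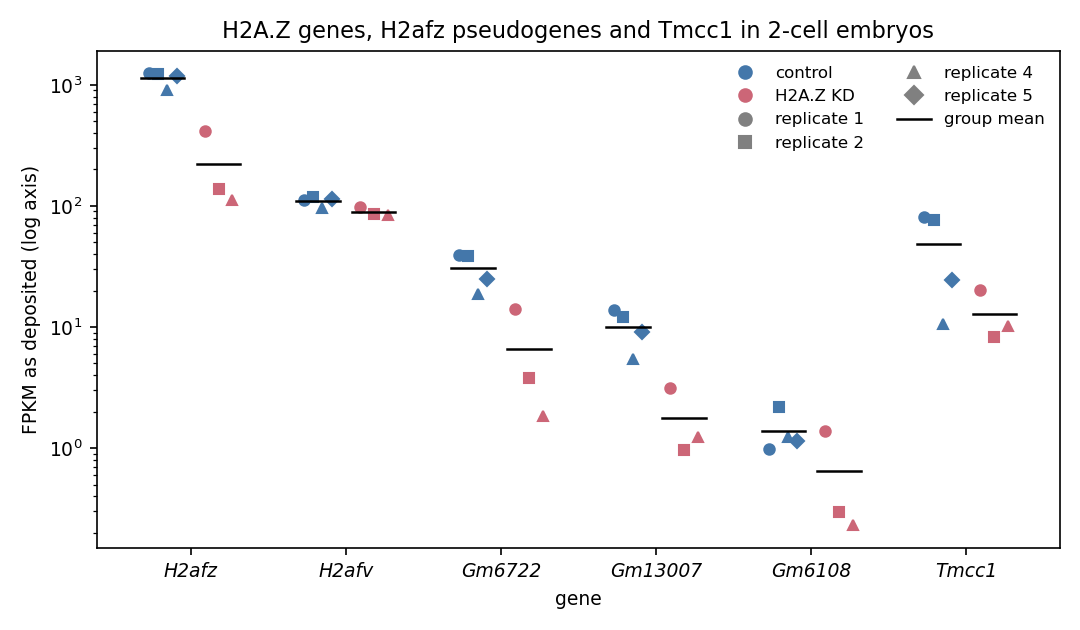
Deposited FPKM, on a log axis, of H2afz, H2afv, the H2afz pseudogenes tested and Tmcc1 in 2-cell control (blue) and H2A.Z KD (red) libraries; symbols mark the replicate number and black lines the group means. KD libraries lie under all control libraries for H2afz, Gm6722 and Gm13007, while the groups overlap for H2afv, Gm6108 and Tmcc1.

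Of the 5 processed pseudogenes of H2afz in the table, Gm6722 and Gm13007 were lower in every KD library than in any control library. Reads from these copies and from H2afz may not be separable, so their values are uncertain. Gm6722 (ENSMUSG00000113431.1) had 39.3, 38.8, 18.9 and 25.0 FPKM in control replicates 1, 2, 4 and 5 and 14.2, 3.76 and 1.84 FPKM in KD replicates 1, 2 and 4. For Gm13007 (ENSMUSG00000083852.1) the control values were 13.7, 12.1, 5.43 and 9.02 FPKM and the KD values 3.16, 0.964 and 1.22 FPKM. In both, KD replicate 1 was the highest KD library, as for H2afz, and the groups did not overlap. The log2 fold changes were -2.30 (-3.39 to -1.20, 95% interval from limma) for Gm6722 and -1.95 (-2.72 to -1.17) for Gm13007. The 2 replicate ranges gave -2.24 and -2.86 for Gm6722, and -2.28 and -1.73 for Gm13007. Gm6108 (ENSMUSG00000109104.1), at 0.989 to 2.18 FPKM in control and 0.231 to 1.40 FPKM in KD libraries, overlapped between groups. Gm8203 (ENSMUSG00000101878.1) was at most 0.230 FPKM and Gm13930 (ENSMUSG00000084134.1) at or near 0, and neither was tested.

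Tmcc1 (ENSMUSG00000030126.17, chr6:116018611-116193486), a gene for a membrane protein of the endoplasmic reticulum, also had lower means in KD embryos, and it shares sequence with H2afz. FPKM of Tmcc1 were 81.1, 76.3, 10.7 and 24.4 in control replicates 1, 2, 4 and 5, and 20.0, 8.29 and 10.1 in KD replicates 1, 2 and 4. Control replicates 1 and 2 were high and control replicate 4 lay among the KD libraries. The log2 fold change was -1.45 (95% interval -2.85 to -0.06 from limma), or -2.52 within numbers 1 and 2 and -0.48 within numbers 4 and 5. Transcript Tmcc1-211, annotated as a retained intron, is a single exon of 2697 bases on the minus strand, and the pseudogene Gm8203 lies within it on the plus strand. All 387 bases of Gm8203 are identical to the H2afz coding sequence with its stop codon. Of the 1069 bases of the H2afz transcript, 669 (62.6%) occur as a single unbroken run on the reverse strand of Tmcc1-211, and 0 matches of 20 bases to H2afz were found in the other Tmcc1 transcripts, of 13 annotated in all. The methods describe libraries of fragmented, amplified cDNA and no step that keeps the strand, so the Tmcc1 values are uncertain. What part of them comes from H2afz RNA was not tested.

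After adjustment for the number of genes, the test called no gene, H2afz included. Of the 12160 genes, 0 (0%) had an adjusted p under 0.05 by limma, and the smallest adjusted p was 0.543, that of H2afz. At an unadjusted p under 0.05 there were 701 genes (5.76%), 352 higher and 349 lower in KD embryos, and with FPKM as deposited, without scaling between libraries, 231 higher and 485 lower. The median log2 fold change of all genes was 0.0035, with 6166 higher and 5994 lower. All KD libraries lay above all control libraries for 322 genes (2.65%) and below for 502 genes (4.13%). Overlap is judged throughout on FPKM as deposited, while fold changes and p are on scaled values. After scaling these counts became 461 genes (3.79%) above and 382 genes (3.14%) below, so the excess of lower genes without overlap is not kept. For 10716 genes (88.1%) the 95% interval lay within a 2-fold difference either way on the log2(FPKM + 1) scale, which for genes of low FPKM is not a 2-fold bound on the level itself. This held for 91.3% of the 4367 genes with a mean FPKM of at least 10 and for 86.4% of the 7793 genes below that.

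Which library is left out mattered for these counts. Without control replicate 2, 1 gene passed the adjusted threshold of limma, the pseudogene Gm43602 (adjusted p = 0.0376). Gm43602 passed the filter through control libraries only, and the library left out is the control with the lowest value (0.065 FPKM, the other controls at 3.82 to 6.50), so this call follows from what was left out. Without KD replicate 1, which kept the most H2afz RNA, 3 genes passed, H2afz (adjusted p = 0.000907), Hmgb1-ps6 (0.0242) and Gm6722 (0.0262). Hmgb1-ps6 was at 4.84 FPKM in the library left out, at the level of the controls (4.48 to 4.90 FPKM), and at 0.534 and 0.426 FPKM in the other KD libraries, so this call too follows from what was left out. For H2afz (415 FPKM against 139 and 112) and Gm6722 (14.2 FPKM against 3.76 and 1.84) the library left out was also the highest KD library. Their calls in this fit thus depend on leaving it out as well. Leaving out any other library gave 0. With a spread estimated over the libraries of all stages, in place of the 2-cell libraries alone, 35 genes passed, 16 of them higher. Gm43602 and Hmgb1-ps6 are named after their values were seen. The 701 genes became 1053 without control replicate 1, 462 without control replicate 5 and 438 without KD replicate 1.

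On the log2(FPKM + 1) scale, 31 genes (0.255%) differed by more than 2-fold, 14 higher and 17 lower in KD embryos. Of these, 16 overlapped between groups. All KD libraries lay above all controls for 8 and below for 7, which a choice by a large difference favours. Over all genes tested the shares were 2.65% and 4.13%. The 31 comprised 21 protein-coding genes, 7 processed pseudogenes, 1 lincRNA, 1 microRNA gene and 1 ribozyme gene, and 6 had a mean under 5 FPKM in both groups. With a pseudocount of 0.1 in place of 1 the count was 246, and with a pseudocount of 5 it was 8. It was 57 without control replicate 1, 63 without control replicate 2, 65 without KD replicate 2 and 86 without KD replicate 4.

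Among genes with a mean of at least 5 FPKM in either group whose groups did not overlap, the largest difference upward was that of Afdn (ENSMUSG00000068036.15), which encodes afadin, a protein that ties nectins to actin at adherens junctions. FPKM of Afdn were 6.73, 9.45, 1.71 and 4.29 in control replicates 1, 2, 4 and 5, and 23.1, 12.0 and 23.1 in KD replicates 1, 2 and 4. Every KD library was above every control library, and the log2 fold change was 1.80 (95% interval 0.84 to 2.76 from limma), 0.97 within numbers 1 and 2 and 2.80 within numbers 4 and 5. Med27, a subunit of Mediator, had 269, 302, 314 and 120 FPKM in control replicates 1, 2, 4 and 5 and 463, 398 and 367 in KD replicates 1, 2 and 4, a log2 fold change of 0.86. Prpf38a, a spliceosome component, had 199, 71.4, 196 and 68.4 FPKM in control and 230.3, 217 and 202 in KD libraries, a log2 fold change of 0.94. Control replicates 2 and 5 were low for Prpf38a, and control replicate 5 for Med27. Atxn7, a subunit of the SAGA coactivator complex, had a log2 fold change of 0.79. The rest of the 10 were Gm773 (1.32), Gm32834 (0.88), 1700063H04Rik (0.84), the processed pseudogene 1700019M22Rik (1.12) and the microRNA genes Gm27325 (1.12) and Gm23606 (0.82), where numbers in parentheses are log2 fold changes. Atxn7, Gm773, Gm32834, 1700063H04Rik and 1700019M22Rik reached a mean of 5 FPKM in KD embryos only, where they are higher. Their place here is thus no support for a difference.

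After H2afz, Gm6722 and Gm13007, the lowest of this kind was Fbxo34, an F-box gene, whose products select targets for ubiquitination. FPKM of Fbxo34 were 9.08, 30.6, 16.2 and 32.1 in control replicates 1, 2, 4 and 5, and 7.81, 8.73 and 6.75 in KD replicates 1, 2 and 4, a log2 fold change of -1.18 (95% interval -1.97 to -0.38 from limma). Pdcd6, for a calcium-binding adaptor protein, had 6.67, 15.0, 13.6 and 25.4 FPKM in control and 5.97, 5.33 and 4.89 in KD libraries, a log2 fold change of -1.15. In both genes control libraries were widely spread and KD libraries close together, just under the lowest control. Nelfcd, a subunit of the negative elongation factor NELF that holds RNA polymerase II near promoters, had 6.03, 6.55, 15.7 and 12.8 FPKM in control and 3.96, 4.94 and 3.94 in KD libraries, a log2 fold change of -0.94. Control replicates 4 and 5 were high for Nelfcd, and its difference was -0.43 within numbers 1 and 2 and -1.48 within numbers 4 and 5. The proteasome subunit Psmd13 had a log2 fold change of -0.91, and Asdurf, the upstream open reading frame of Asnsd1, had -0.98. Gm4778 (-1.09) and the processed pseudogene Gm6505 (-1.16) completed the 10. Gm13007, Gm6505, Asdurf and Nelfcd reached a mean of 5 FPKM in control embryos only, where they are higher, so their place here is no support for a difference.

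Gene lists are described below by the number of members tested, their direction and the median log2 fold change, beside 0.0035 over all genes. With FPKM as deposited the median over all genes was -0.0487, so a list can change sign in that fit through this common shift. Counts of members without overlap stand beside 2.65% above and 4.13% below over all genes (3.79% and 3.14% after scaling), and 0 members of any list passed an adjusted p under 0.05.

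The machinery that places and removes H2A.Z was present in 2-cell embryos of both groups. Of the 10 genes of the SRCAP complex and Anp32e, 3 were higher and 7 lower in KD embryos, with a median of -0.11 (-0.0047 within numbers 1 and 2, -0.26 within numbers 4 and 5). Srcap, the ATPase of the complex, had 3.27, 2.23, 3.60 and 4.94 FPKM in control replicates 1, 2, 4 and 5 and 4.35, 2.91 and 2.21 in KD replicates 1, 2 and 4. Anp32e had 11.9, 13.0, 13.3 and 16.7 FPKM in control and 15.3, 16.2 and 12.1 in KD libraries. Both overlapped between groups. Dmap1, a subunit shared by SRCAP and TIP60-p400, had 1.39, 1.73, 1.26 and 2.77 FPKM in control and 0.775, 0.678 and 0.549 in KD libraries. It passed the filter through the control libraries only, where it is higher, so its lack of overlap is no support for a difference. The 12 genes of TIP60-p400 had a median of 0.07 (0.15 within numbers 1 and 2, 0.10 within numbers 4 and 5), 9 higher and 3 lower, and Mrgbp (-0.46) was the only member of this list, which does not hold Dmap1, without overlap. After scaling Mbtd1 (0.47) was also without overlap, on the higher side. In the INO80 complex, another remodeller of the same family, 4 of 12 genes were higher and 8 lower, with a median of -0.02 (-0.0045 within numbers 1 and 2, -0.13 within numbers 4 and 5).

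Other histone variants gave a median of -0.02 over 7 genes tested of 9, 3 higher and 4 lower (-0.12 within numbers 1 and 2, 0.12 within numbers 4 and 5), and 0.11 without KD replicate 2. H1f0 (0.32) was higher without overlap after scaling. H3f3a, a gene for histone H3.3, had 223, 235, 321 and 234 FPKM in control replicates 1, 2, 4 and 5 and 164, 208 and 162 in KD replicates 1, 2 and 4. All KD libraries were under all controls, and the log2 fold change was -0.43 (95% interval -0.78 to -0.09 from limma). H3f3b, the other gene for H3.3, was the most abundant variant, with a mean of 991 FPKM in control and 1026 FPKM in KD embryos. Of the variants not tested, H2afy, for macroH2A, reached at most 0.25 FPKM.

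Genes that are switched on in the 2-cell embryo were expressed in both groups. Of 32 such ZGA genes 31 were tested, 19 higher and 12 lower, with a median of 0.06 (-0.06 within numbers 1 and 2, 0.21 within numbers 4 and 5). Beside -0.0487 over all genes with FPKM as deposited, the median of the ZGA genes was -0.0090. Their summed FPKM were 1874, 1624, 1641 and 1401 in control replicates 1, 2, 4 and 5 and 1689.5 in KD replicate 1, 1656 in KD replicate 2 and 1449 in KD replicate 4, so the groups overlapped. Zscan4c, a gene that marks the 2-cell state, had 36.6, 41.1, 27.9 and 29.3 FPKM in control libraries and 48.0, 29.0 and 36.3 in KD libraries. Zfp352, a zinc-finger gene of the same wave, had 112, 109, 86.7 and 79.9 FPKM in control and 92.5, 87.8 and 101 in KD libraries. Neither gene separated the groups, and Zscan4d (40.5 FPKM on average in control, 38.2 in KD) did not either. The list held 1 gene without overlap in each direction. Usp17lb, of a family of deubiquitinases, had 114, 121, 178 and 169 FPKM in control and 88.6, 74.8 and 96.1 in KD libraries (log2 fold change -0.66), and Zscan4a was higher (0.27). Both belong to families of near-identical copies, and their values are uncertain.

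Regulators of ZGA divided evenly, with 11 of 23 tested genes higher and 12 lower and a median of -0.02 (-0.03 within numbers 1 and 2, -0.02 within numbers 4 and 5), which was 0.01 without control replicate 5 or without KD replicate 1. Nelfa, which encodes another NELF subunit, had 11.3, 13.7, 26.5 and 15.8 FPKM in control replicates 1, 2, 4 and 5 and 9.79, 10.0 and 7.97 in KD replicates 1, 2 and 4, a log2 fold change of -0.67 (-0.30 within numbers 1 and 2, -1.11 within numbers 4 and 5). Nfya, a subunit of the CCAAT-binding factor NF-Y, and Dppa2, an activator of 2-cell genes, were also lower without overlap, at -0.38 and -0.34, and the remodeller Smarca5 was higher, at 0.43. Dppa4, the partner of Dppa2, averaged 257 FPKM in control and 241 FPKM in KD embryos. Klf17 averaged 152 and 97.2 FPKM and Obox5 199 and 169.8 FPKM, and both overlapped between groups.

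In the RNA polymerase II list, 13 of 22 genes were higher and 9 lower, with a median of 0.06 (0.01 within numbers 1 and 2, 0.03 within numbers 4 and 5). The list median was -0.0042 with FPKM as deposited, beside -0.0487 over all genes. Without control replicate 4 it was -0.0063, beside -0.0087 over all genes. The 3 members without overlap were lower, namely Nelfcd, Nelfe (-0.41) and Polr2e (-0.19), and after scaling Polr2b (0.15) was higher without overlap. Ribosome biogenesis had a median of -0.16 over 22 genes, 8 higher and 14 lower (-0.01 within numbers 1 and 2, -0.14 within numbers 4 and 5). Wdr12, of the PeBoW complex that matures the large ribosomal subunit, had 11.5, 11.7, 11.9 and 9.31 FPKM in control replicates 1, 2, 4 and 5 and 7.75, 8.46 and 5.34 in KD replicates 1, 2 and 4. Its groups did not overlap, while those of Bop1, its partner, did (-0.54). The nucleolar chaperone gene Npm1 averaged 426 FPKM in control and 297 FPKM in KD embryos, again with overlap.

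Of 18 oocyte genes tested, whose RNAs the egg stores, 7 were higher and 11 lower, with a median of -0.04 (-0.06 within numbers 1 and 2, -0.03 within numbers 4 and 5) that turned to 0.01 without control replicate 4, and 0 were free of overlap. The most abundant, Tcl1, averaged 1608 FPKM in control and 1695 FPKM in KD embryos, and the oocyte-secreted Oosp1 652 and 737 FPKM. The subcortical maternal complex, a protein assembly of the egg cortex needed for cleavage, had 2 genes higher and 6 lower, with a median of -0.22 (-0.04 within numbers 1 and 2, -0.29 within numbers 4 and 5). Ooep (-0.30) was its only gene without overlap, and it overlapped after scaling. Among maternal effect genes 10 of 13 were higher, with a median of 0.09 (0.11 within numbers 1 and 2, 0.06 within numbers 4 and 5), and Zar1 (0.40) was without overlap after scaling. Dppa3, which protects the maternal genome from demethylation and is among the most abundant RNAs, averaged 5205 FPKM in control and 6225 FPKM in KD embryos, with overlap. The genes that clear maternal RNA had a median of 0.10, with 10 of 14 higher, but -0.01 within numbers 1 and 2 against 0.34 within numbers 4 and 5. Cnot6l, a deadenylase subunit of CCR4-NOT, had 27.8, 31.1, 21.3 and 31.8 FPKM in control libraries and 31.2, 43.6 and 40.9 in KD libraries, so that KD replicate 1 lay among the controls, while after scaling all KD libraries lay above all controls.

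Chromatin modifiers of active and silent promoters had more members higher than lower, as had all genes tested (6166 higher, 5994 lower). Over all 7 libraries the H3K4 methylation list, of writers, erasers and shared subunits, had the highest median of the lists with at least 5 genes tested. It was 0.22 with 11 of 16 genes higher (0.18 within numbers 1 and 2, 0.20 within numbers 4 and 5). Within numbers 4 and 5 the 8 markers of the 2-cell embryo (0.41), the mitochondrial genome (0.35), the genes that clear maternal RNA (0.34) and the 2-cell ZGA genes (0.21) had higher medians. Kdm1a, a demethylase of H3K4, had 5.32, 2.37, 5.34 and 5.17 FPKM in control replicates 1, 2, 4 and 5 and 6.88, 7.57 and 5.95 in KD replicates 1, 2 and 4. It was higher without overlap (log2 fold change 0.59), as was the methyltransferase Kmt2b (0.43), while the demethylase Kdm5c was lower (-0.20). Wdr5 (-0.30) and Rbbp5 (-0.62), core subunits of the methyltransferase complexes, were lower in mean with overlap. After scaling Wdr5, and on the higher side Kmt2c (0.41), were without overlap. For Polycomb complexes the median was 0.15 (0.09 within numbers 1 and 2, 0.14 within numbers 4 and 5), with 12 of 21 tested genes higher and 9 lower. Bmi1, a subunit of Polycomb repressive complex 1, had 200.6, 277, 223 and 261 FPKM in control and 288, 343 and 291 in KD libraries (log2 fold change 0.43). Yaf2, which joins the same complexes, had 19.5, 17.4, 18.8 and 12.0 FPKM in control and 22.6, 23.9 and 22.4 in KD libraries (0.50). KD libraries were above all controls in both. Ezh2 (0.37) and Suz12 (0.44), of Polycomb repressive complex 2, overlapped between groups.

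Of the cell cycle genes tested, 23 of 26 were lower in KD embryos, with a median of -0.22. Within replicate numbers 1 and 2 there were 21 lower members (median -0.16). Within numbers 4 and 5, with KD replicate 4 as the only KD library, there were 18 (median -0.28). The median stayed between -0.28 and -0.14 in every fit tried. Cdk1 (-0.32), the kinase that drives mitosis, Rrm2 (-0.35), a subunit of the enzyme that makes deoxynucleotides, and Ccnb2 (-0.05) were lower without overlap, and all 3 overlapped after scaling, when Cdc25b (-0.34) did not. Cdk2, the kinase of S-phase entry, had 11.8, 15.1, 44.6 and 38.0 FPKM in control replicates 1, 2, 4 and 5 and 12.1, 11.7 and 22.4 in KD replicates 1, 2 and 4. Libraries numbered 4 and 5 were thus high for Cdk2 in both groups. Ccnd3 (-0.97), a D-type cyclin, was at 0.404, 4.67 and 0.430 FPKM in KD libraries and 2.65 to 6.22 FPKM in control libraries. The replication factors of the Mcm family were lower in mean in all 6 members, from Mcm6 (-0.36) to Mcm4 (-0.0049, beside 0.0035 over all genes). All of them overlapped between groups, also after scaling, and the family was named after its values were seen.

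All 13 protein-coding genes of the mitochondrial genome, which are transcribed together as long precursors, were higher in mean in KD embryos, with a median of 0.18 and 0 free of overlap, or 1, mt-Nd6 (0.34), after scaling. Within numbers 1 and 2 the median was -0.0025 with 6 genes higher, and within numbers 4 and 5 it was 0.35 with 13 higher. Mitochondrial genes took 22.8%, 27.0%, 20.7% and 21.8% of the summed FPKM in control replicates 1, 2, 4 and 5 and 26.9%, 22.8% and 26.3% in KD replicates 1, 2 and 4. Control replicates 4 and 5 held the lowest shares, and mt-Cytb was the most abundant gene of every library. Of 12 housekeeping genes 7 were higher, with a median of 0.04 (-0.04 within numbers 1 and 2, -0.08 within numbers 4 and 5). The housekeeping median was -0.03 with FPKM as deposited, beside -0.0487 over all genes. It was also -0.03 without control replicate 4, and -0.02 without KD replicate 4. Gapdh, often used as a reference gene, was lower without overlap, and overlapped after scaling, at 24.0, 20.7, 37.3 and 25.3 FPKM in control and 17.9, 15.5 and 20.3 in KD libraries (-0.47).

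Transcription factors of later lineages were mostly silent. Of 20 developmental transcription factors 7 were tested, with a median of -0.17 that was 0.02 without control replicate 1, and within numbers 1 and 2 and numbers 4 and 5 it was 0.02 and -0.02. Foxa2 and Neurog1 were listed at 0 in all 7 libraries, Cdx2 reached at most 0.016 FPKM, Gata6 0.588 FPKM and Nanog 0.422 FPKM. Pou5f1 averaged 3.11 FPKM in control and 2.47 FPKM in KD embryos. Klf4, a Krüppel-like factor, had 10.2, 8.34, 9.50 and 11.4 FPKM in control replicates 1, 2, 4 and 5 and 11.6, 16.2 and 15.7 in KD replicates 1, 2 and 4, above all controls, a log2 fold change of 0.56.

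Genes that respond to p53 and damage had a median of -0.06 over 15 tested of 22, 7 higher and 8 lower (0.06 within numbers 1 and 2, -0.07 within numbers 4 and 5), and 0.02 without control replicate 4. Cdkn1a, the cyclin-dependent kinase inhibitor p21, had 8.28, 11.1, 20.2 and 14.6 FPKM in control libraries and 12.8, 13.6 and 12.9 in KD libraries, which lay inside the range of the controls. Mdm2, the ubiquitin ligase of p53, averaged 41.0 and 40.7 FPKM and Ccng1 2.61 and 2.81 FPKM in control and KD embryos. Rrm2b, a p53-induced ribonucleotide reductase subunit, was higher without overlap (0.31). Stress genes had a median of -0.13 over 10 tested, 4 higher and 6 lower (-0.03 within numbers 1 and 2, -0.08 within numbers 4 and 5). Since the KD rested on injected double-stranded RNA, genes of the interferon response and of RNA interference were also listed. Of 20 interferon genes 2 passed the filter, Tlr3 (0.43), at 0.480 to 1.25 FPKM in control and 1.01 to 2.05 FPKM in KD libraries, and Cxcl10 (-0.56), and both overlapped. Their median of -0.06 was 0.064 without control replicate 4 and 0.19 without KD replicate 1. The 8 tested genes of RNA interference had a median of 0.06 (0.13 within numbers 1 and 2, -0.03 within numbers 4 and 5), with Dicer1 at 0.22 and Drosha at 0.26, the latter without overlap after scaling.

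**Figure D2:**
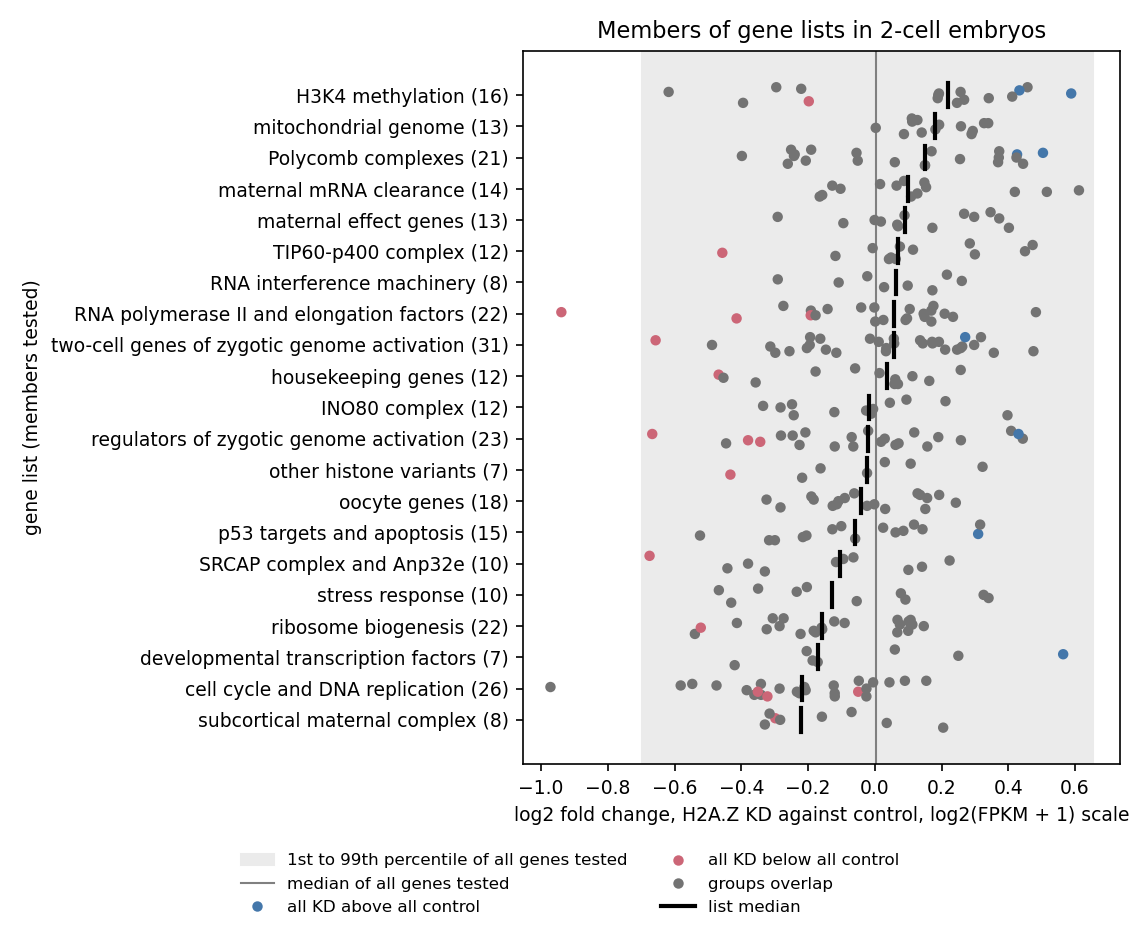
Log2 fold change (H2A.Z KD against control, log2(FPKM + 1) scale) of each tested member of the gene lists with at least 5 genes tested; blue and red points are genes whose KD libraries lie above or below all control libraries on FPKM as deposited, black bars are list medians, and the grey band spans the lowest to the highest 1 percent of all genes (-0.70 to 0.65). Marker lists are not drawn. List medians lie between -0.22 and 0.22. With FPKM as deposited those of the 2-cell ZGA genes, RNA polymerase II and housekeeping genes turn negative. They stay above the median of all genes in that fit (-0.0487).

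Libraries were set apart by the range of their replicate numbers on PC1. On the 500 most variable genes, PC1 held 35.7% of the variance and scored 8.17 and 7.56 in control replicates 1 and 2 but -13.8 and -12.9 in control replicates 4 and 5. KD replicates 1 and 2 scored 10.7 and 5.41, and KD replicate 4 scored -5.08, on the side of the high numbers. PC3 (13.6% of the variance) scored -5.78, -4.45 and -3.76 in KD replicates 1, 2 and 4 and -1.54 to 13.3 in control libraries. The groups did not overlap on PC3, with control replicate 1 far from the rest. They overlapped on PC2, and PC3 was not chosen beforehand, so this split is no support for a difference. In a fit with KD as the other term, 20 genes (0.164%) had an adjusted p under 0.05 by limma for this range, 14 higher and 6 lower in libraries numbered 4 and 5. Cdk2 (1.24), the mitotic activator Cdc20 (1.13) and the endoplasmic reticulum chaperone Hspa5 (1.01) were among the higher genes and Rab14 (-0.93), of endosomal transport, among the lower ones. Among these 20 genes Gm3147 had the largest such difference (2.17), at 0.187 to 0.649 FPKM in the 4 libraries numbered 1 and 2 and 2.98 to 7.39 FPKM in the 3 numbered 4 and 5, through which alone it passed the filter. The count depended on which library was left out: it was 4 without control replicate 1 or KD replicate 1, 1 without control replicate 2 or 4, 2 without control replicate 5, 36 without KD replicate 2 and 46 without KD replicate 4. At FPKM of at least 5 in 3 libraries (6573 genes) it was 102, and with a pseudocount of 0.1 it was 11. The relative depth, in units read from the lowest values of single-exon genes, was 22.9, 18.1, 27.3 and 27.1 in control replicates 1, 2, 4 and 5 and 23.2, 20.8 and 27.1 in KD replicates 1, 2 and 4. The most common bin of these values held 55 to 100 genes, of 5086 to 5745 above 0 in a library, so this estimate is rough. The estimate goes with the range, and the part of depth in these differences was not tested.

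**Figure D3:**
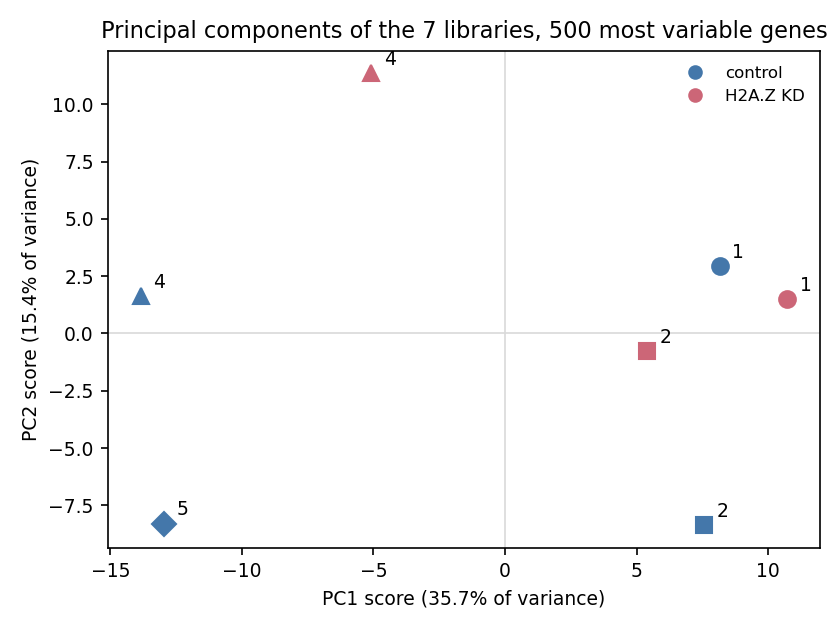
Scores of the 7 libraries of 2-cell embryos on PC1 (35.7% of the variance) and PC2 (15.4%), from log2(FPKM + 1) of the 500 most variable genes; blue is control, red is H2A.Z KD, and numbers are replicate numbers. Libraries numbered 4 and 5 have negative and those numbered 1 and 2 positive PC1 scores in both groups.

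The KD effect at the 2-cell stage was set against that in morulae, which come from the same design at a later time and share no libraries with the 2-cell embryos. In morulae 387 of 10989 genes (3.52%) were differentially expressed by limma (adjusted p under 0.05 and over 2-fold). Of the 109 that were higher there, 86 were tested in 2-cell embryos and had a median log2 fold change of 0.10, against 1.15 in morulae, where the choice of genes by their morula difference fixes the median above 1. Of the 278 that were lower, 188 were tested and had a median of -0.11 against -1.19, which is fixed by the choice in the same way. The difference between stages, the effect in morulae minus that in 2-cell embryos, had an adjusted p under 0.05 by limma for 121 of the 8677 genes tested at both stages (1.39%), 41 positive and 80 negative, and for 111 of the 121 the effect was larger in size in morulae. The effects had opposite signs in 95 of the 121, which a choice by the difference between them favours. The number of genes with a difference between stages was 55 without KD replicate 1 of the 2-cell embryos and 185 with FPKM as deposited. With the replicate range of each stage as a covariate it was 263. Morulae were split there into numbers 1 and 2 against 6, 7 and 8.

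H2afv was among these genes. Its log2 fold change was -2.93 in morulae and -0.23 in 2-cell embryos, and the difference of -2.70 had an adjusted p of 5.2e-06 (limma), while KD morulae kept 11.2% of the control level. For H2afz the difference was -2.88 (adjusted p = 0.0054). Cdkn1a had a log2 fold change of 1.71 in morulae against 0.09 in 2-cell embryos, a difference of 1.62 (adjusted p = 0.015). The uridine phosphorylase gene Upp1 differed by 2.00 (adjusted p = 0.0054), being 1.79 in morulae and -0.21 in 2-cell embryos. These 4 calls held in every fit in which the gene was tested, with adjusted p of at most 0.0422. For Mdm2 (difference 0.94, adjusted p = 0.055) and Ccng1 (1.18, adjusted p = 0.052) the difference between stages did not pass.

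**Figure D4:**
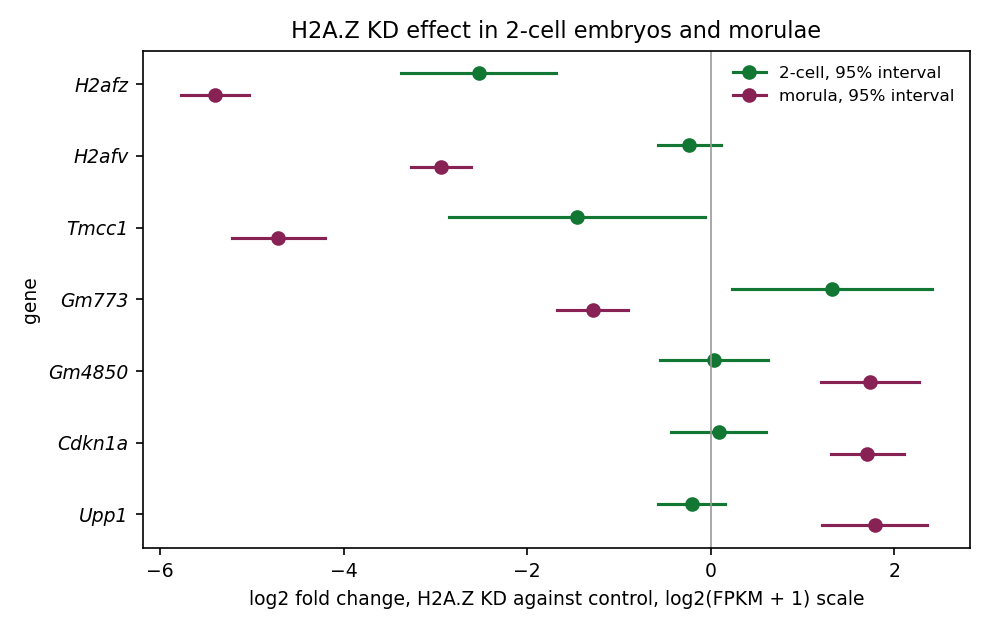
Log2 fold change with 95% interval from limma (H2A.Z KD against control, log2(FPKM + 1) scale) in 2-cell embryos (green) and morulae (purple) for the 7 named genes whose KD effect differed between stages. H2afv is at -0.23 and -2.93, and Cdkn1a at 0.09 and 1.71.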

How the data were processed

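The values are FPKM per gene as deposited by the authors, and the reads themselves were not used. According to the submitters' processing notes, STAR, StringTie 2.1.4, featureCounts 1.6.2 and DESeq2 1.30.1 were used upstream with the mouse genome mm10 (GRCm38). Gene types, positions and exons are from GENCODE M21, which holds 54587 of the 55335 gene identifiers in the same version and 55154 in any version. Of all genes, 18726 were at 0 in all 7 libraries. Genes with FPKM of at least 1 in at least 3 of the 7 libraries were kept, the libraries of a stage were scaled by the median of ratios (factors 0.960 to 1.10 for 2-cell embryos), and log2(FPKM + 1) was fitted by limma 3.58.1 with a trended empirical Bayes variance in R 4.3.3. Adjusted p are by the Benjamini-Hochberg method. Tables and figures were made with Python 3.11.15, pandas 2.3.3, numpy 2.4.6 and matplotlib 3.10.9.

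The libraries and the gene lists were chosen with earlier results of these data known. Genes were named by rule: the most abundant members of a list and those with the largest difference, the 10 highest and the 10 lowest genes with a mean of at least 5 FPKM in either group and no overlap between groups, genes with the largest differences in morulae or between replicate ranges, H2afz pseudogenes, and a few fixed genes. Members of lists outside this rule, such as Nelfe, Polr2e and the Mcm genes, were named after their values were seen. Depth in reads is unknown, since FPKM keep only relative depth, and a count test was therefore not run. The sequence differences between H2afz and the pseudogenes Gm6722, Gm13007 and Gm6108 are not reported here.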

Additional observations from a re-analysis of the deposited data

Results flagged for a closer look

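A control value was marked as an outlier by Dixon's ratio within the 4 control libraries for 6 of the 130 genes looked at, and chance alone marks about 1 in 20 groups. Control replicate 4 was the highest for Mrgbp (2.26 FPKM, the others at 1.22 to 1.29), H3f3a (321 FPKM, the others at 223 to 235), Hspb1 (96.2 FPKM, the others at 55.5 to 58.0) and Ccnd3 (6.22 FPKM, the others at 2.65 to 3.07). Control replicate 5 was the lowest for Wdr12 (9.31 FPKM, the others at 11.5 to 11.9) and control replicate 2 for Kdm1a (2.37 FPKM, the others at 5.17 to 5.34). No value was removed.

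Of 107 named genes tested at both stages, 7 had a KD effect that differed between morulae and 2-cell embryos, against 1.39% of all genes tested at both. All of the 7 but Gm773 were named for, among other things, a large difference in morulae, so the count is no measure of how common this is: H2afz (-2.88), H2afv (-2.70), Gm773 (-2.61), Tmcc1 (-3.26), Upp1 (2.00), Cdkn1a (1.62) and Gm4850 (1.70). Gm773 (adjusted p = 0.0338) was not called without control replicate 2 (0.0622), KD replicate 1 (0.0881), KD replicate 2 (0.0577) or KD replicate 4 (0.0548). Gm4850 (adjusted p = 0.0377) was not called without control replicate 1 (0.0582), control replicate 2 (0.0627), KD replicate 1 (0.0551), KD replicate 2 (0.0608) or KD replicate 4 (0.0938). Tmcc1 (adjusted p = 0.0431) was not called without control replicate 5 (0.0732), KD replicate 1 (0.112) or KD replicate 4 (0.0733). The cause was not tested.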

How the results depend on the processing

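Genes with an adjusted p under 0.05 numbered 0 with FPKM as deposited, upper quartile scaling, no trend, robust variance and the range of replicate numbers as a covariate. With a spread shared over all stages they numbered 35, 16 of them higher, and with 1 library left out 0 to 3. The 701 genes at an unadjusted p under 0.05 became 1570 without a filter (36609 genes), 413 at FPKM of at least 5 (6573 genes), 1373 with the shared spread and 438 to 1053 with 1 library left out. The 31 genes over 2-fold became 246 with a pseudocount of 0.1 and 8 with a pseudocount of 5, which by construction raise and lower the weight of low genes, and 33 to 86 with 1 library left out.

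H2afz was at -2.53 with an adjusted p of 0.00014 under the shared spread, and between -3.12 and -2.19 with 1 library left out. H2afv was between -0.32 and -0.17. The 121 genes with a difference between stages became 185 with FPKM as deposited and 75 at FPKM of at least 5 (4343 genes). They became 263 with the range of each stage as a covariate and 55 to 128 with 1 library of 2-cell embryos left out. Leaving out morula libraries was not tried. The 20 genes of the range became 11 with a pseudocount of 0.1, 102 at FPKM of at least 5 and 1 to 46 with 1 library left out. Leaving out single libraries for these 2 counts, list medians within replicate ranges, and overlap after scaling, were chosen after the data were seen. Of 128 named genes 35 took another sign in some fit, and of 27 lists 11 did, or 15 with the values within a replicate range counted. Sign changes with FPKM as deposited include a common shift, since the median of all genes was -0.0487 in that fit. The cause was not tested.

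A replicate block, which treats equal numbers as pairs, gave 0 adjusted calls, 654 genes at p under 0.05, 34 over 2-fold and a smallest adjusted p of 0.248. The pairing check does not settle whether equal numbers are pairs: residual correlations were 0.209 for replicate 1, 0.015 for replicate 2 and 0.214 for replicate 4. By these correlations each KD library was closest to the control library of its own number, by little for KD replicates 1 (0.209 against 0.205) and 2 (0.015 against 0.010), which is a hint from the data and not from the design. By the correlation of whole libraries, among the control libraries, KD replicate 4 was closest to control replicate 1 (0.9672) and least close to control replicate 4 (0.9632).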

Other observations

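By gene type, all KD libraries lay above all controls for 267 and below for 388 of 9015 protein-coding genes on FPKM as deposited, and for 379 and 285 after scaling. For 1279 processed pseudogenes the counts were 14 and 42, or 24 and 33 after scaling, with a median log2 fold change of 0.02. For 531 lincRNA genes they were 8 and 24, or 11 and 22 after scaling, with a median of 0.03. Over all genes tested the shares were 2.65% and 4.13%, or 3.79% and 3.14% after scaling.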
